A study of Mus musculus with 6 samples.

Results

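The Schlafen (Slfn) genes are a vertebrate family first described in the mouse as genes regulated during the development of T cells. Their products fall into short (Slfn1, Slfn2), intermediate (Slfn3, Slfn4) and long (Slfn5, Slfn8, Slfn9, Slfn14) forms, of which the long forms carry a helicase-like domain at their C terminus. Several members are induced by interferon, and they are best known in lymphocytes, monocytes, macrophages and neutrophils, where they are linked to quiescence, proliferation and the restriction of viruses. Here 7 members were examined in the mouse spinal cord, namely Slfn1, Slfn2, Slfn3, Slfn4, Slfn5, Slfn8 and Slfn9. They were taken as every non-control probe that the array files name for one of these genes, which gave 9 probes out of 41174, and 7 gene names out of 27343. The family was selected on the genotype difference of these same samples, in which Slfn4 was among the genes farthest apart, so the differences between the groups are given as a description and the members are not tested.

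Total RNA came from the spinal cord of male C57BL/6 mice aged 8 weeks, with 3 wild-type and 3 Dhtkd1 null samples on 1 single-colour (Cy3) Agilent array each. Dhtkd1 encodes the dehydrogenase subunit of a mitochondrial 2-oxoacid dehydrogenase complex in the breakdown of lysine, and the null samples carry a knockout of it. The labels do not say which part of Dhtkd1 was removed, whether animals were pooled, or in so many words that each replicate is a separate mouse, so every error given covers only how far apart these labelled samples lie. A level is the log2 processed intensity with the 75th percentile of its own array (918 to 1032 intensity units) subtracted, so a level of 0 lies at that percentile and negative levels below it. The scanner software marks a spot as well above background or not, and 78.4% to 82.0% of spots were so marked per array. Probes marked so on 3 or more arrays were retained (33190 probes), and the brightest retained probe stood for each of 21438 genes. Levels of different probes are not compared with each other, since probes differ in brightness for reasons other than transcript number. At both Dhtkd1 probes (mm9, chr2:5817910-5817969 and chr2:5825028-5825087) all null samples lay below all wild-type samples, by 1.08 (SE 0.08) and 1.07 (SE 0.28) on the log2 scale. Both probes were still well above background in all 3 null samples, at 0.472-fold and 0.475-fold of the wild-type signal, and within slide 1 the log2 differences were -1.07 and -0.78. All 19 markers of spinal cord neurons and glia, such as Chat, Gfap and Mbp, were well above background on all 6 arrays, and their median log2 difference between null and wild-type was -0.02. The array layout crosses the genotypes poorly: wild-type replicate 2 and the 3 null samples share slide 1, and wild-type replicates 1 and 3 are on slide 2.

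Each probe is a 60-base oligonucleotide, and its position in the files is on the mm9 mouse genome. All 9 lie on chromosome 11, within 252842 bases, in a cluster in which Slfn8 and Slfn9 run on the minus strand and the other members on the plus strand. Whether a probe lies in coding sequence or in a UTR is not given in the files and was not determined here. The first 30 bases of each probe are printed below, 5′ to 3′, because they are what identifies each member in these measurements. At the best placement without gaps, on either strand, any pair of whole probes shared 19 to 26 of 60 bases, so no probe was a near copy of another. Probes were not compared with the transcripts of other members, so this does not show that each measures only its own gene. The sequence of the brighter Slfn9 probe is however listed in the files with accessions of Slfn8 and Slfn10-ps as well as Slfn9, and that of the dimmer Slfn9 probe with Slfn8 and Slfn9, so these 2 probes cannot separate the copies.
Slfn1, chr11:82935656-82935715, plus strand: agacaagatcaatagtcttgattattcagc
Slfn2, chr11:82883791-82883850, plus strand: acagaggaatgggtgaaactccagatgaat
Slfn3, chr11:83028431-83028490, plus strand: cccaaaaatattatctgtcggccaaggcag
Slfn4, chr11:83002974-83003033, plus strand: ttctgtcttaaaggaaaacattgtatctct
Slfn5 (brighter probe), chr11:82778192-82778251, plus strand: tatcaacctgtatcctggtaaacatttcat
Slfn5 (dimmer probe), chr11:82775649-82775708, plus strand: gtttgaaatgtaagttcacaaactgcaagc
Slfn8, chr11:82816883-82816942, minus strand: tctatgtagcagataagtgttatgatttct
Slfn9 (brighter probe), chr11:82794408-82794467, minus strand: gacataggctatgggaacgttgagaccata
Slfn9 (dimmer probe), chr11:82794497-82794556, minus strand: atgtaggaaaaaattaccaatgtgtatatc

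Of the 7 members, Slfn2, Slfn3 and Slfn4 had a higher signal in each null sample than in any wild-type sample, Slfn5 and Slfn9 overlapped between genotypes, and Slfn1 and Slfn8 did not pass the filter on low signals. Slfn4 stood farthest apart, with a signal 5.17-fold higher in null cord by an estimate described below. That value is no lower limit, since the difference was smaller with another background correction. Slfn3, with a signal close to background, was 1.84-fold and Slfn2 1.33-fold higher, and both differences were also smaller with that correction. Their lowest null sample exceeded their highest wild-type sample by only 0.13 and 0.02 on the log2 scale. With Slfn1, the 3 are the neighbouring short and intermediate forms at one end of the stretch that holds the 7 members. In all 5 members, measured by 7 probes, passed the filter. Among all 21438 genes, 9.18% had all null samples above all wild-type samples and 5.63% had all null samples below. The members' counts were 3 of 5 and 0 of 5, but the contrast that gives these counts is the one on which the family was selected, so nothing is read from them. In the fit across all genes with limma no gene passed an adjusted p under 0.05 (0%), members included, while 1931 genes were under 0.05 before adjustment, 5.76% of the genes tested as higher and 3.25% as lower in null cord.

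Slfn4 is an intermediate form known from cells of the myeloid lineage, in which it changes with macrophage differentiation and activation. Its processed intensity was 10.6, 9.46 and 6.28 in wild-type replicates 1, 2 and 3, and 69.4, 81.9 and 23.6 in null replicates 1, 2 and 3. As levels relative to the 75th percentile these were -6.54, -6.70 and -7.19 in wild-type cord and -3.89, -3.55 and -5.41 in null cord. The groups did not overlap, null replicates 1 and 2 were close to each other, and null replicate 3 lay between them and the wild-type samples. The probe was well above background in all 3 null samples and in 0 of the 3 wild-type samples. It thus passed the filter only through the null group, and the wild-type level is uncertain. Of all 41174 probes, 23 (0.0559%) had this pattern, and 24 had the opposite one.

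The mean Slfn4 level of wild-type cord was -6.81 ± 0.34 (SD, n = 3) and that of null cord -4.28 ± 0.99 (SD, n = 3), a measured log2 difference of 2.53 (SE 0.51), which rests on wild-type spots not well above background. The estimate of 5.17-fold uses, on each wild-type array, the higher of 2 signals. These are the probe's own signal and the lowest signal of any probe marked as well above background. Only wild-type replicate 3 was raised by this, from 6.28 to 8.66 intensity units, so the estimate is no lower limit. The measured signals alone gave 5.76-fold. The estimate was 4.01-fold without null replicate 2 and 7.65-fold without null replicate 3. On slide 1 alone, where wild-type replicate 2 is the single wild-type array, it was 5.34-fold. With normexp background correction and an offset of 50, which is of the size of these intensities, the log2 difference was 0.63. Slfn4 transcripts in a piece of cord can come from more cells that carry them or from more RNA per cell, and these bulk measurements cannot tell the 2 apart for any member.

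**Figure D1:**
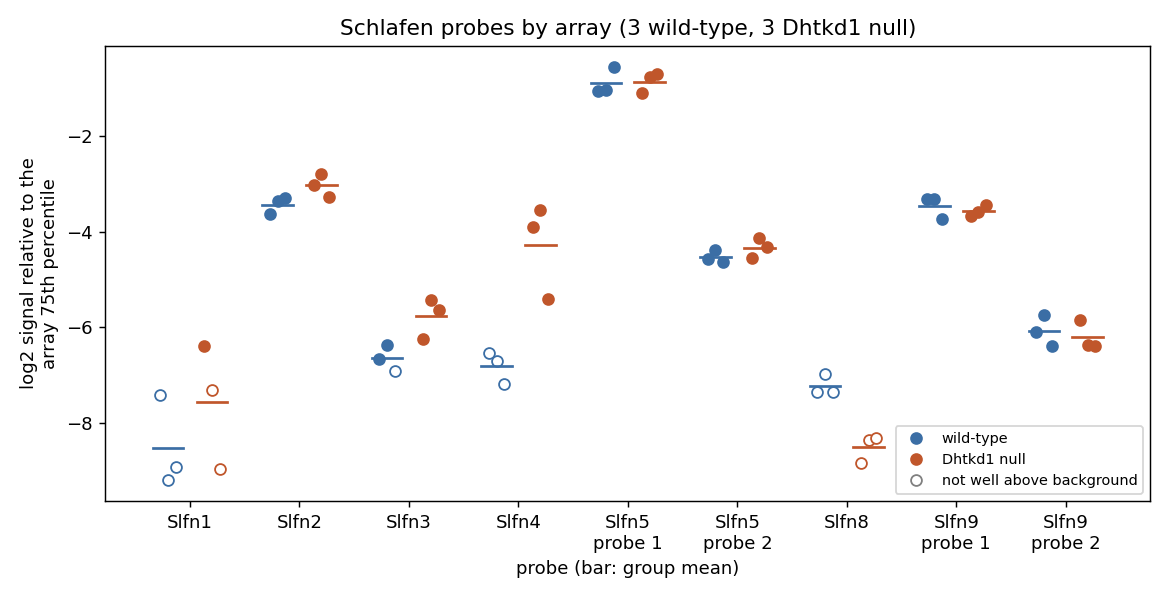
Level of each of the 9 Schlafen probes on each array, relative to the 75th percentile of that array (log2), for wild-type (blue) and Dhtkd1 null (orange) samples in replicate order. Bars are group means of 3 samples, open circles are spots not well above background, probe 1 is the brighter probe of a gene, and heights of different probes are not comparable. The blue and orange points are apart for Slfn2, Slfn3 and Slfn4, and also for Slfn8, where no spot was well above background.

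Slfn3, the other intermediate form, is known from T cells and the intestinal epithelium. Its levels were -6.66, -6.37 and -6.91 in wild-type and -6.24, -5.44 and -5.63 in null replicates 1 to 3. All null samples were higher than all wild-type samples, null replicate 1 by the least, only 0.13 above wild-type replicate 2. Group means were -6.65 ± 0.27 (SD, n = 3) and -5.77 ± 0.42 (SD, n = 3), a log2 difference of 0.88 (SE 0.25). The signal was close to background, with intensities of 7.64 to 11.9 in wild-type and 13.7 to 22.1 in null cord, and wild-type replicate 3 was not well above it. Within slide 1 the difference was 0.60, and with normexp correction it was 0.10.

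Slfn2 is a short form that keeps T cells and monocytes in quiescence. It was well above background on all 6 arrays, with levels of -3.63, -3.36 and -3.30 in wild-type and -3.01, -2.79 and -3.27 in null replicates 1 to 3. Null replicates 1 and 2 were above every wild-type sample by a clear step, while null replicate 3 exceeded wild-type replicate 3 by only 0.02. Group means were -3.43 ± 0.18 (SD, n = 3) and -3.02 ± 0.24 (SD, n = 3), which is a log2 difference of 0.41 (SE 0.16), with 0.34 within slide 1 and 0.25 with normexp correction. Null replicate 2 had the highest level of Slfn2, Slfn3 and Slfn4 alike, and the order of null replicates 1 and 3 differed between them.

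Slfn1, a short form that halts the growth of thymocytes when it is forced on, was close to the limit of the arrays. Its levels were -7.43, -9.21 and -8.94 in wild-type and -6.41, -7.31 and -8.98 in null replicates 1 to 3. Only null replicate 1 was well above background, the groups overlapped, and no fold difference is given. Its probe did not pass the filter.

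Slfn5 is a long, interferon-induced form. At its brighter probe the levels were -1.05, -1.03 and -0.54 in wild-type and -1.10, -0.77 and -0.70 in null replicates 1 to 3. At its dimmer probe they were -4.57, -4.39 and -4.64 in wild-type and -4.54, -4.13 and -4.32 in null cord. Both probes were well above background on all 6 arrays, and the groups overlapped at both. The log2 differences were 0.02 (SE 0.18) and 0.20, and the sign of the first was negative in 6 of 19 alternative analyses, so Slfn5 has no direction here. Within slide 1 the difference at the brighter probe was 0.18.

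Slfn9, a long form on the minus strand, gave levels of -3.32, -3.31 and -3.74 in wild-type and -3.67, -3.59 and -3.43 in null replicates 1 to 3 at the brighter probe. At the dimmer probe the levels were -6.10, -5.74 and -6.39 in wild-type and -5.84, -6.37 and -6.39 in null cord. The groups overlapped at both probes, with log2 differences of -0.11 (SE 0.14) and -0.13, the first being -0.25 within slide 1. The probe of Slfn8, its close relative, was not well above background on any array, with levels of -7.37, -6.97 and -7.35 in wild-type and -8.85, -8.36 and -8.33 in null cord. All null samples were lower than all wild-type samples, but since neither group was well above background no fold difference is given.

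Other Schlafen genes on the array add little. Slfn14, a long form known from platelets and red cell precursors and named Slfn14-ps in the array files, was well above background in wild-type replicates 1 and 2 and null replicate 2. Its levels were -6.40, -6.59 and -6.68 in wild-type and -7.22, -5.37 and -6.86 in null replicates 1 to 3, so the null samples spanned the wild-type ones. Slfnl1, a Schlafen-like gene on chromosome 4, and Slfn5os, the antisense gene at Slfn5, were not well above background on any array.

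The locus around the family was then read for other genes. Within 300000 bases on either side of the Schlafen probes (mm9) lay probes of 22 other genes, of which 15 passed the filter, Slfn14 among them. None of the 15 had groups that did not overlap and none had an unadjusted p under 0.05 in the limma fit, with 9 higher and 6 lower in null cord. Over all genes 9.18% and 5.63% did not overlap, with null above and below, and 5.76% and 3.25% were under 0.05 as higher and lower. Their median log2 difference was 0.02, as it was over all genes. Among the neighbours Unc45b, a myosin chaperone gene, differed by -0.21, Rasl10b by 0.24 and Mmp28, a secreted metalloproteinase, by -0.23.

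**Figure D2:**
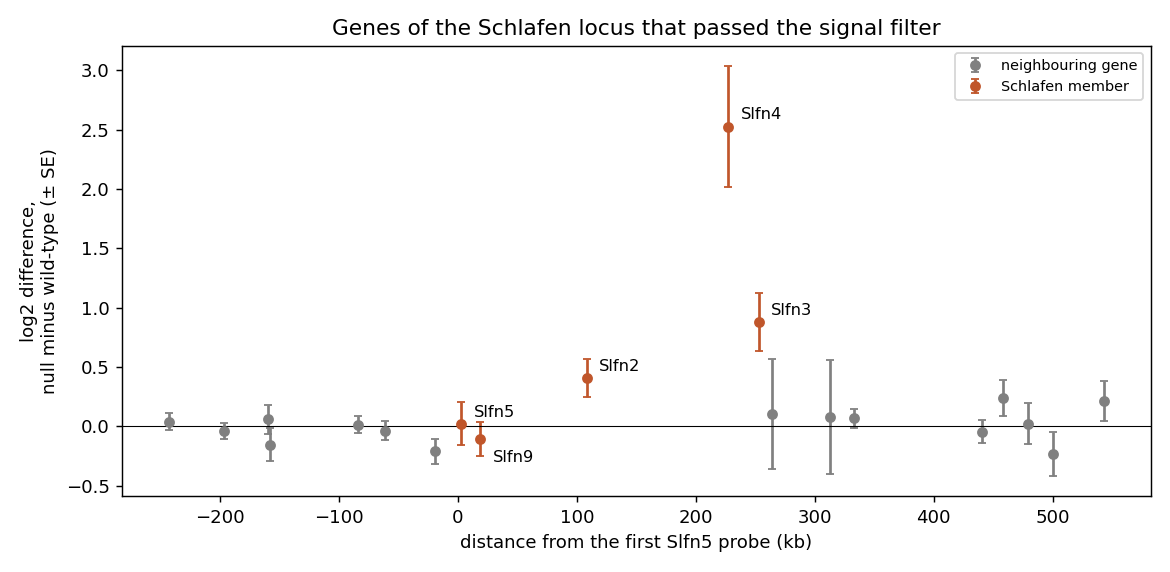
Log2 difference, null minus wild-type, with its standard error (3 samples per group) for genes that passed the filter within 300000 bases of the Schlafen probes, against distance in kb from the first Slfn5 probe. Schlafen members are orange and neighbours grey, and Slfn4 at a measured 2.53 (with wild-type spots not well above background), Slfn3 at 0.88 and Slfn2 at 0.41 are the only points whose samples do not overlap between groups.

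The DNA in front of the 7 members was read next. Among them Slfn1, Slfn2, Slfn3 and Slfn4 lie on one side, and the long forms Slfn5, Slfn8 and Slfn9 on the other. Slfn14, a long form outside these members, lies beyond Slfn3, and its promoter was not read. Promoters are the 250 bases before the start of each gene in RefSeq on GRCm38.p6, and all 7 members matched by symbol, Slfn8 with 2 starts. Motifs were chosen with the values and the sequences already seen, so what follows describes the sequences and is no test, and a match is not a binding site. The interferon-stimulated response element (ISRE), read as GAAA, any 2 bases, GAAA on either strand, occurred in Slfn5, Slfn8 and Slfn9, and in 3.0% of all 32851 promoters. The core GGAAGT, which factors of the ETS family can bind and which reads ACTTCC on the other strand, occurred in Slfn1, Slfn2, Slfn3 and Slfn4, with 2 copies in Slfn3, and in 19.7% of all promoters. By these exact strings each member had one of the motifs and none had both. Inexact matches were not counted. The Slfn4 promoter printed below holds tttcactttt, an inexact match to the ISRE on the opposite strand. The windows below show the motif in capitals, with 17 bases on either side on the gene's own strand, taking the copy nearest the start. The ETS core began 42 to 74 bases before the start, and the ISRE 136 or 48 bases before the 2 starts of Slfn8, 45 bases before that of Slfn9, and farther upstream in Slfn5.
Slfn1, chr11:83116729-83116768, plus strand: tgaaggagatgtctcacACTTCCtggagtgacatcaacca
Slfn2, chr11:83065040-83065079, plus strand: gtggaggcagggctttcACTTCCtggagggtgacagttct
Slfn3, chr11:83191271-83191310, plus strand: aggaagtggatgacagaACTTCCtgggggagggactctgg
Slfn4, chr11:83175096-83175135, plus strand: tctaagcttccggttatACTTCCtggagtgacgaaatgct
Slfn5, chr11:82951930-82951973, plus strand: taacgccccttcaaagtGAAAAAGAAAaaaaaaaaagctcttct
Slfn8, chr11:83020832-83020875, minus strand: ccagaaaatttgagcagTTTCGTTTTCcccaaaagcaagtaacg
Slfn9, chr11:82991849-82991892, minus strand: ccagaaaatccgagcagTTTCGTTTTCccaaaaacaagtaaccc

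The run acttcctggag, 11 bases long and including the ETS core, was picked as the longest shared by the promoters of Slfn2 and Slfn4. Its presence in those promoters was thus fixed by the choice. The run also stood in the promoter of Slfn1, and in 20 of the 32851 promoters (0.0609%), these 3 members included. Slfn1 and Slfn4 shared it as part of a run of 15 bases, while Slfn3 shared 9 bases of it with Slfn4. Slfn8 and Slfn9 shared a run of 20 bases. The site TTCNNNGAA, which STAT factors can bind, was in the window of no member and in 7.0% of all promoters. The site TTGCNNAA, which C/EBP factors can bind, was in Slfn2 and Slfn3 and in 9.6% of all promoters, and no motif overlapped another. Whole windows are printed for Slfn4, the member farthest apart between genotypes, and for Slfn5, a long form without a direction, with the motifs above in capitals.
Slfn4, chr11:83174936-83175185, plus strand: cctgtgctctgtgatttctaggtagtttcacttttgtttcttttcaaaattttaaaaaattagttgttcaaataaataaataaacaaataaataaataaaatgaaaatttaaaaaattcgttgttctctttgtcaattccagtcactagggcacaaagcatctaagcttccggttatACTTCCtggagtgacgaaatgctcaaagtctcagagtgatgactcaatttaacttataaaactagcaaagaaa
Slfn5, chr11:82951852-82952101, plus strand: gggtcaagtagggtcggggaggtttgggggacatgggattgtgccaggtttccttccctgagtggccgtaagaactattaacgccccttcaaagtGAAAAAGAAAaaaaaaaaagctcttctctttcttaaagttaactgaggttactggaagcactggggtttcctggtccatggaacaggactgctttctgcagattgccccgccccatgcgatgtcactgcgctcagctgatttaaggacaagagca

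Interferon-induced genes other than the Schlafen family were lower rather than higher in null cord. Of 37 such genes 36 passed the filter, since Mx1, an antiviral GTPase, was not well above background on any array. In null cord 28 of the 36 were lower and 8 higher, 11 were lower at an unadjusted p under 0.05 and 0 were higher at it, against 3.25% and 5.76% of all genes, and none passed after adjustment with limma. The median log2 difference was -0.20, against 0.02 over all genes, and -0.29 within slide 1. Irgm2, an immunity-related GTPase, differed by -0.62 (SE 0.10). Ifit3, which belongs to a family that binds viral RNA, differed by -0.44 (SE 0.09), with levels of 0.57, 0.77 and 0.57 in wild-type and 0.16, 0.14 and 0.27 in null replicates 1 to 3, and its relatives Ifit1 and Ifit2 by -0.39 and -0.26. Igtp and Gbp3, further interferon-induced GTPases, differed by -0.39 and -0.38. In 15 of the 36 genes all null samples were below all wild-type samples, against 5.63% of all genes. Slfn2, Slfn3 and Slfn4 thus differed in the opposite direction to most of this list, and Slfn5 with neither. Whether interferon has a part in the Schlafen values was not tested.

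Interferon receptors and the kinases and factors downstream of them differed less. Of 14 genes, all tested, 5 were higher and 9 lower in null cord, none at an unadjusted p under 0.05, and the median log2 difference was -0.04. Irf7, a factor that is itself induced by interferon, differed by -0.28 (SE 0.16). Jak2, a kinase downstream of the receptors, differed by -0.15 (SE 0.10), and the groups overlapped in both.

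Genes of neutrophils and marrow myeloid cells were set beside Slfn4. All 15 were tested and all 15 were higher in null cord on average, 3 of them at an unadjusted p under 0.05 (5.76% of all genes) and 0 after adjustment with limma, with a median log2 difference of 1.09. Lcn2, an iron-scavenging protein of neutrophil granules that other cells also make, differed by 2.30 (SE 0.44), Prtn3, a granule protease, by 1.16 (SE 0.43), and Il1r2, a decoy receptor for interleukin 1, by 1.08 (SE 0.35). These were also the only 3 in which the groups did not overlap (9.18% of all genes). Without null replicate 3, the null sample with the lowest list mean, 14 of the 15 were higher at an unadjusted p under 0.05 with limma. That compares with 4.01% of all genes in that fit, and the median was 1.63. With any other single sample left out instead, only 1 to 4 of the 15 were higher at that p. In those fits 1258 to 2903 of all 21438 genes were under it in either direction. Without null replicate 2 the median was 0.71. Within slide 1 it was 1.08. Mean deviations of the list from each gene's average were -0.05, -0.55 and -1.19 in wild-type and 0.78, 1.44 and -0.42 in null replicates 1 to 3. Summed intensities ran from 27162 to 63820 in wild-type and from 44570 to 163167 in null cord, so these ranges overlapped.

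Array by array, Slfn4 and this list were both highest in null replicates 1 and 2. They parted at null replicate 3, whose list mean of -0.42 was below that of wild-type replicate 1 at -0.05, while its Slfn4 level of -5.41 was above every wild-type level. Of 9 monocyte genes all 9 were higher in null cord on average, against 11681 of all 21438 genes. Of the 9, 1 was higher at an unadjusted p under 0.05 with limma (Ly6c2), against 5.76% of all genes. The median log2 difference was 0.82. Array means were -0.19, -0.51 and -0.41 in wild-type and 0.14, 0.91 and 0.06 in null cord, which did not overlap. That median was 1.05 within slide 1, 0.39 without null replicate 2 and 0.28 with normexp correction. Ly6c2, a surface protein used as a marker of inflammatory monocytes, differed by 1.02 (SE 0.19). Its levels were 4.13, 4.09 and 4.14 in wild-type and 4.69, 5.36 and 5.37 in null replicates 1 to 3. Whether its signal came from monocytes was not determined. For these myeloid lists the part they have in the difference of Slfn2, Slfn3 or Slfn4 was not tested.

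**Figure D3:**
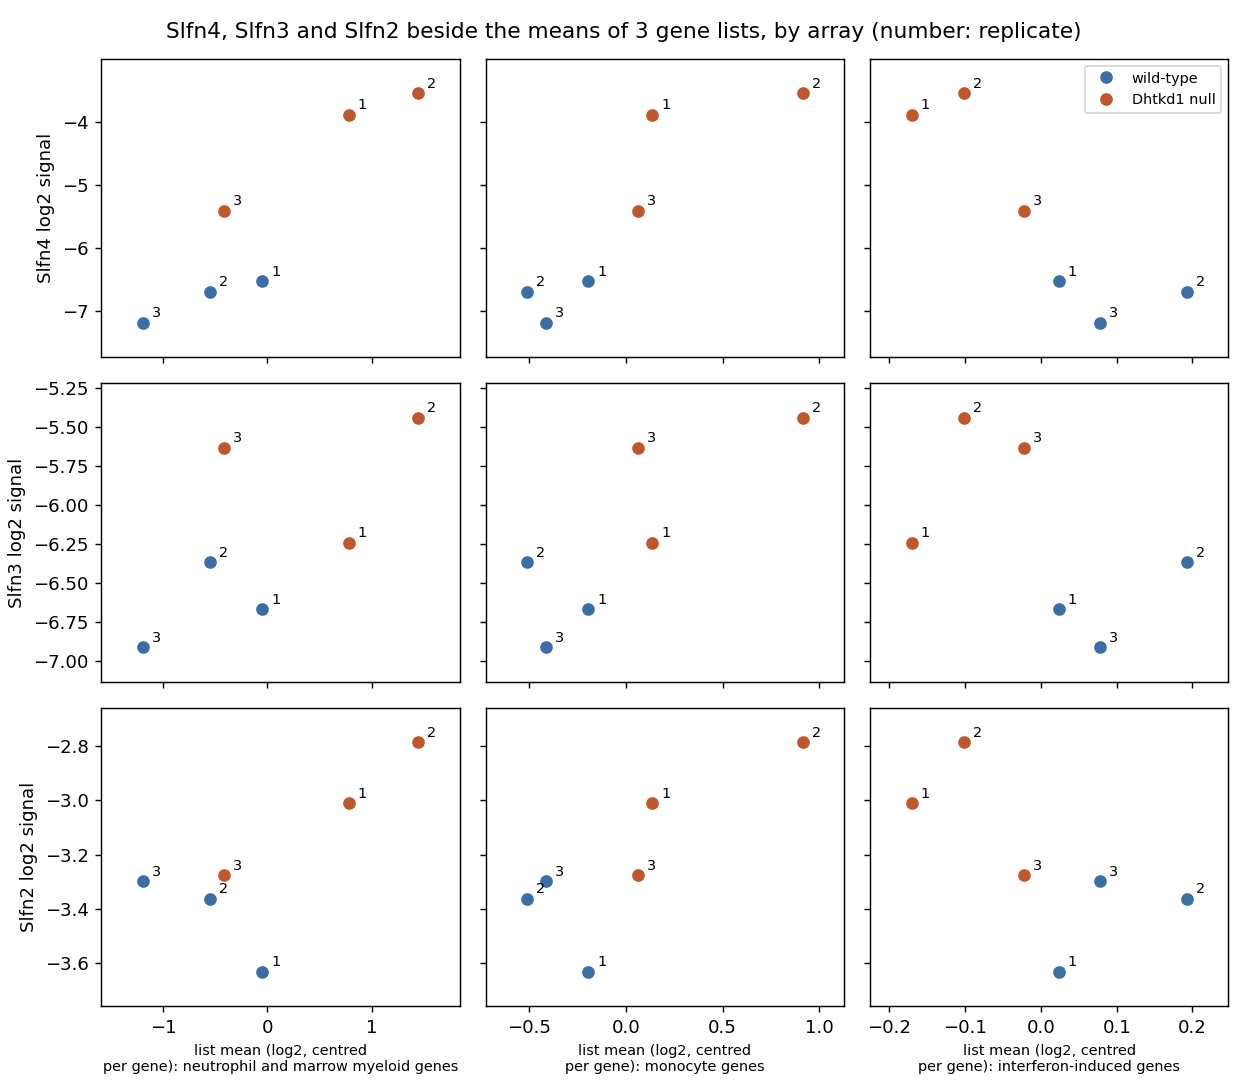
Level of Slfn4, Slfn3 and Slfn2 (rows, log2 relative to the array's 75th percentile) against the mean deviation of neutrophil and marrow myeloid, monocyte and interferon-induced genes (columns, log2, centred per gene) on each of the 6 arrays, numbered by replicate. Null samples (orange) lie above wild-type samples (blue) in every row, to the right for monocyte genes and to the left for interferon-induced genes. Along the neutrophil axis they are mixed, with null replicate 3 to the left of wild-type replicate 1.

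Markers of other cell types that can carry Schlafen transcripts were read in the same way. Of 13 microglial genes 11 were higher in null cord, 4 at an unadjusted p under 0.05 (Fcrls, C1qb, C1qa and Aif1) against 5.76% of all genes, with a median log2 difference of 0.19. Without wild-type replicate 1 the median was -0.01, and within slide 1 it was 0.07. Of 6 T cell genes tested 3 were higher and 3 lower. At an unadjusted p under 0.05, 1 was higher, Cd5 at 0.61 (SE 0.23), against 5.76% of all genes. Likewise 1 was lower, Cd8b1 at -0.50 (SE 0.19), against 3.25%, and groups overlapped in both. Cd3g, Cd2 and Cd28 were not well above background on any array. Of 6 B cell genes tested 3 were higher and 3 lower, with a median log2 difference of -0.39, or -0.48 within slide 1. At an unadjusted p under 0.05, 2 were lower (3.25% of all genes) and 0 higher, namely Vpreb3, a gene of B cell precursors, with a log2 difference of -0.84 (SE 0.29), and Ms4a1, the gene of CD20, which was well above background in 3 wild-type samples but only 1 null sample. Both had all null samples below all wild-type samples (5.63% of all genes), and Pax5 and Blk were not well above background on any array. Endothelial genes were 4 higher and 6 lower. The part of these cell types in the Schlafen values was not tested.

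Slfn4 had the widest spread of the members over the 6 arrays, with an SD of 1.53, and genes with a like pattern were sought among 15580 named genes. The 5 highest Pearson correlations over the 6 arrays were those of Plk1, a mitotic kinase (0.994), Cd300lf, an inhibitory receptor of myeloid cells (0.991), Rtp3 (0.988), Farp1 (0.987) and Serpinc1, the gene of antithrombin (0.986). The ranking describes these 6 arrays only, which share slides and genotype. The Slfn4 pattern is mainly the genotype difference on which the family was selected, and its wild-type values are not well above background. The highest of 15580 correlations over only 6 arrays are large through selection, so no link to Slfn4 is read from them. The sizes differed, since the log2 difference was 1.22 for Cd300lf, 0.72 for Plk1, 0.37 for Rtp3, 0.36 for Serpinc1 and 0.10 for Farp1. Cd300lf levels were -3.24, -3.46 and -3.70 in wild-type and -1.99, -1.77 and -2.97 in null replicates 1 to 3.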

How the data were processed

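Members, gene lists and motifs were chosen with earlier results of these data known. The authors' scanner files, per the file headers, were made with Agilent Feature Extraction 10.7.3.1 (array design 014868, mm9) and hold a processed intensity per spot, background-subtracted within each array and not normalized between arrays, beside mean and background intensities and flags. The authors' deposited value table is in log2 units. Its columns have equal medians (7.22) and follow the log2 intensity of their own array (r of 0.9997 or more across probes), and its normalization is not given in the sources used here. It served as an alternative only.

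Outlier spots (58 to 89 per array) were left out, spots of a probe averaged on the log2 scale, and the array's 75th percentile subtracted. Names came from the files, updated through a RefSeq table (GRCm38.p6) for 27668 probes by accession and 471 by synonym. Genes were fitted with limma 3.58.1 (lmFit, eBayes, 2-sided) in R 4.3.3, null minus wild-type without covariates, with Benjamini-Hochberg adjustment over 21438 genes. SE is limma's moderated standard error. The fit was tested on simulated data whose spread between samples was smaller than that of the members. That test does not show how the fit performs at the members' spread. An exact permutation test of 3 against 3 samples cannot go below 0.1 (2-sided).

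Named genes are all members, other Schlafen genes, neighbours, the 5 genes most like the most variable member (clone-like and predicted names left out), and list members with the smallest p. Unc45b, Rasl10b, Mmp28, Mx1 and undetected markers were named after their values were seen. Some results are not reported here. Alternatives were the normalization, centring, background correction, value table, filter, outlier spots, slide, replicate block, probe choice, variance model, and each sample left out.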

Additional observations from a re-analysis of the deposited data

How the results depend on the processing

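The count of genes past the adjusted threshold, 0 as reported, was 1 with quantile normalization, median centring, normexp with an offset of 50, the deposited value table or a filter on all 6 arrays, 3 with the trend and robust options, and 0 to 2 with each sample left out. The 1931 genes at an unadjusted p under 0.05 became 1258 to 2903 with each sample left out (1258 without null replicate 2, 1269 without null replicate 3, 2903 without wild-type replicate 1). The median log2 difference of the tested members, 0.41, was 0.10 with normexp, 0.020 with the filter on all 6 arrays, which leaves 3 members, 0.20 over every kept probe, and 0.29 to 0.53 with each sample left out. With normexp the difference was 0.63 for Slfn4 and 0.10 for Slfn3, whose intensities lie near or below the offset that is added. Over all alternatives that gave a value, Slfn2, Slfn3 and Slfn4 were positive in each and Slfn9 negative in each, while Slfn5 ran from -0.07 to 0.19. Replicate numbers did not pair the samples (correlations of same-numbered deviations of -0.02, -0.11 and 0.33, with no basis in the labels), and a fit with the replicate block gave 0 adjusted and 1834 unadjusted genes and a median of 0.41. Low signal limits Slfn1, Slfn8, Slfn3 and the wild-type level of Slfn4, and 3 samples per group and the slide layout limit every value.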

Other observations

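Of 7 red blood cell genes tested, all 7 were higher in null cord on average, with a median log2 difference of 0.72 and 1 at an unadjusted p under 0.05, against 5.76% of all genes (Alas2, the first enzyme of heme synthesis in red cell precursors). The median was 1.17 without wild-type replicate 1, 0.47 without wild-type replicate 3 and 0.22 with normexp correction. Their array means were 0.39, -0.72 and -0.71 in wild-type and 0.47, 0.62 and -0.06 in null replicates 1 to 3, so wild-type replicate 1 lay among the null samples. Adipocyte genes had no settled direction. Of 9 tested, 8 were higher, with a median of 0.70, but within slide 1 the counts turned to 2 higher against 7 lower (median -0.66), and without null replicate 2 the counts were 4 and 5 with a median of -0.09. Without 1 other sample the median was 0.22 (wild-type replicate 1), 1.22 (wild-type replicate 2) or 1.32 (null replicate 3), and with normexp correction it was 0.32. Their array means were -1.26, 0.87 and -0.64 in wild-type and -0.03, 1.61 and -0.55 in null cord, highest in null replicate 2, which was also the highest sample for Slfn2, Slfn3 and Slfn4. The part of these cell types in the Schlafen values was not tested.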
